A study of Mus musculus with 47 samples.

Results

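The mitosis and chromosome segregation genes examined here are 52 mouse genes whose products drive cells from the G2 phase through mitosis. Each was taken as the probe sets that carry its symbol, and no other, in the platform annotation. By this rule 51 of the 52 had a value, among 13554 genes with a value on at least 3 arrays. Ccnb1, which encodes cyclin B1, had no such probe set. The samples were RNA from the crypts and from the villi of the small intestine of C57BL/6 mice, hybridised to 47 Affymetrix arrays. In the genetic arm, mice aged 3 months and fed the purified control diet Ain76A were wild type, Apc1638N/+ (heterozygous for a truncating allele of the tumour suppressor Apc) or p21-/- (lacking the cell cycle inhibitor encoded by Cdkn1a). In the dietary arm, wild-type mice were fed Ain76A, NWD1 or NWD2 for 1 year. NWD1 is a Western-style diet, richer in fat and poorer in calcium and vitamin D than Ain76A, and NWD2 is in addition poorer in methyl donors. Each of the 12 groups of tissue and condition held 4 arrays, except the NWD2 villi with 3. The labels do not say whether the arrays of a group came from separate mice, so p-values measure only the spread between these samples. The design asks whether these nutritional and genetic risk factors for intestinal tumours change expression in crypts, in villi, or in both.

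In the small intestine, cells divide in the crypts and stop dividing before they move onto the villi. Mitotic genes are transcribed mainly in the G2 phase and in mitosis, and many are held silent in resting cells by the DREAM complex, which binds a promoter element called the cell cycle genes homology region, or CHR. Cdk1 with its cyclins starts mitosis, condensin and topoisomerase shape the chromosomes, kinetochores and the spindle attach and move them, the checkpoint delays their separation, and the anaphase-promoting complex ends the division. The products of this programme fall with the share of dividing cells in a tissue. In RNA from bulk tissue, fewer dividing cells and less RNA per dividing cell cannot be told apart.

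Promoter sequence is a property of the members that their choice did not use. RefSeq promoters (GRCm38.p6) of 300 bases, from 250 before the annotated start to 50 after it, were at hand for 42 of the 52 members and for 27025 genes in all. The 3 kinds of element named next were searched on both strands, and a base could count towards more than 1 kind. The CHR, as TTTGAA or TTCGAA, was in 32 of the 42 member promoters (76.2%) and in 19.4% of all promoters. Within 50 bases of the start it was in 29 of the 42 (69%) and in 5.29% of all promoters. A CCAAT box was in 33 members (78.6%) against 37.9% of all promoters, and 29 members (69%) held both, against 7.7%. An E2F-type element (TTTGGCGC, TTTCGCGC, TTCCCGCC or TTTCCCGC) was in 3 members (7.14%) against 3.57%. These matches describe letters in the window only. The sequences printed are the promoters of Cdk1 (chr10:69352863-69353162, minus strand), Ncapg (chr5:45669675-45669974, plus strand), Kif23 (chr9:61946750-61947049, minus strand) and Cenpf (chr1:189688037-189688336, minus strand). These 4 fell in NWD2 crypts, described further on, and hold both a CCAAT box and a CHR. So do Aurka, Ckap2, Kif4, Smc2 and Spc25, which also fell. Ccnb2, Cdc20, Cenpa, Plk1 and Top2a hold both as well and were not called there. With both in 69% of the members that had a promoter, holding both does not set apart those that fell. Dlgap5, Incenp, Smc4, Spc24 and Stmn1 fell and had no promoter at hand. Cks2 fell too and holds only CCAAT boxes, and Birc5, Nuf2 and Pttg1 fell and hold none of the letters searched. Mad2l1 (chr6:66534971-66535270, plus strand) fell most in that comparison and holds none of the letters searched. Capitals mark the matches, and ATTGG is the CCAAT box on the other strand.
Cdk1: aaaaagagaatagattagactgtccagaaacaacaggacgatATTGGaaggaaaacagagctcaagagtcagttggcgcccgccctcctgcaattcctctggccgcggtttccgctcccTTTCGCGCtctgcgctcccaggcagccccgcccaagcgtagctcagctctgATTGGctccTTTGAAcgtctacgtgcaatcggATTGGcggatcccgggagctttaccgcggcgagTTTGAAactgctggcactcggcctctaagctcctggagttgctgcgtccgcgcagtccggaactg
Ncapg: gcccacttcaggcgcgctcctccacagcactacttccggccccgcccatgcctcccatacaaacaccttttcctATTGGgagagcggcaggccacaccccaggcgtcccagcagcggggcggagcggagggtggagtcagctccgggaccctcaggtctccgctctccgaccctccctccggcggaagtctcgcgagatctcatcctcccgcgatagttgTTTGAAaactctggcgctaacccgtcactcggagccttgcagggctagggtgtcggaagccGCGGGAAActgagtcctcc
Kif23: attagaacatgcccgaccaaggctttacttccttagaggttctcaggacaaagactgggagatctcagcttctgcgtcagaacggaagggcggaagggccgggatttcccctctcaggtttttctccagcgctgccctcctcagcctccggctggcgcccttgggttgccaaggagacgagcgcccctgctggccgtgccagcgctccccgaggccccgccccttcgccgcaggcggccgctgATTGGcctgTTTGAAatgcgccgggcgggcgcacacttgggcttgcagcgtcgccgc
Cenpf: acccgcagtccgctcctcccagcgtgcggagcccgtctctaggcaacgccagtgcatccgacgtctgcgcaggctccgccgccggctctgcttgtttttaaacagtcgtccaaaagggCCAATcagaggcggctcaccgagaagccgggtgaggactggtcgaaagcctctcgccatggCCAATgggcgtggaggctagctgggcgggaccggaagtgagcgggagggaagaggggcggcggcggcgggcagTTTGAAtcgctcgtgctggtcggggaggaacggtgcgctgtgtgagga
Mad2l1: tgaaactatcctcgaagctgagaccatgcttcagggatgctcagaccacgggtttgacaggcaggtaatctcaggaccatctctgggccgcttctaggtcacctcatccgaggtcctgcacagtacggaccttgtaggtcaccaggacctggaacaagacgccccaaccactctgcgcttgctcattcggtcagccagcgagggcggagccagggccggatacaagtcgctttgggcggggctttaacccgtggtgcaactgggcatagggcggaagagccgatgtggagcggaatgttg
In the printed Kif23 promoter the CCAAT box spans positions -7 to -3 and the CHR positions 2 to 7, counted from the start as 0. The Cdk1 promoter holds 3 CCAAT boxes, 2 CHR letters and 1 E2F-type element, with the CHR copies at -71 to -66 and -15 to -10. Ncapg has its CHR at -30 to -25, and Cenpf at 2 to 7.

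The deposited values are log2 signals in which 55.3% of cells are blank, and a blank was kept as no value. Between 41 and 51 members had a value on each crypt array, and between 13 and 48 on each villus array. The lowest villus count was 13, on wild-type array 3. The highest were 48 on NWD1 array 1, 45 on NWD1 array 2 and 48 on NWD2 array 1. Over all genes, 56.9% to 78.3% were measured on an array, and the villus array with 13 members had 61% of genes measured. On the NWD1 villus arrays 1 to 4 the mean of 2 Paneth cell genes, which mark the crypt base, was 15.48, 15.18, 13.66 and 13.30. The median over the 36 members measured on all 24 crypt arrays ranged from 10.96 to 11.27 in Ain76A crypts and from 9.56 to 11.40 in 3-month wild-type crypts. In villi, over those of the 36 with a value, it ranged from 7.79 to 9.30. Wild-type crypt arrays 2 and 4 had medians of 9.88 and 9.56, below arrays 1 and 3 at 11.40 and 10.49. In those 4 wild-type crypt arrays the mean of 13 enterocyte markers was 12.81, 14.60, 14.02 and 14.42. Cdkn1a, checked first because p21-/- mice lack it, had no value on any of the 8 p21-/- arrays for 1 of its probe sets. That probe set averaged 9.12 ± 0.52 (SD, n = 4) in wild-type crypts and 10.93 ± 0.99 (SD, n = 4) in wild-type villi. Its other probe set gave 11.70 ± 0.39 (SD, n = 4) in p21-/- crypts and 12.47 ± 0.71 (SD, n = 4) in wild-type crypts, but 13.11 ± 0.29 (SD, n = 4) in p21-/- villi and 12.74 ± 0.25 (SD, n = 4) in wild-type villi. The absence of a signal in p21-/- mice was thus seen with 1 of the 2 probe sets.

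**Figure D1:**
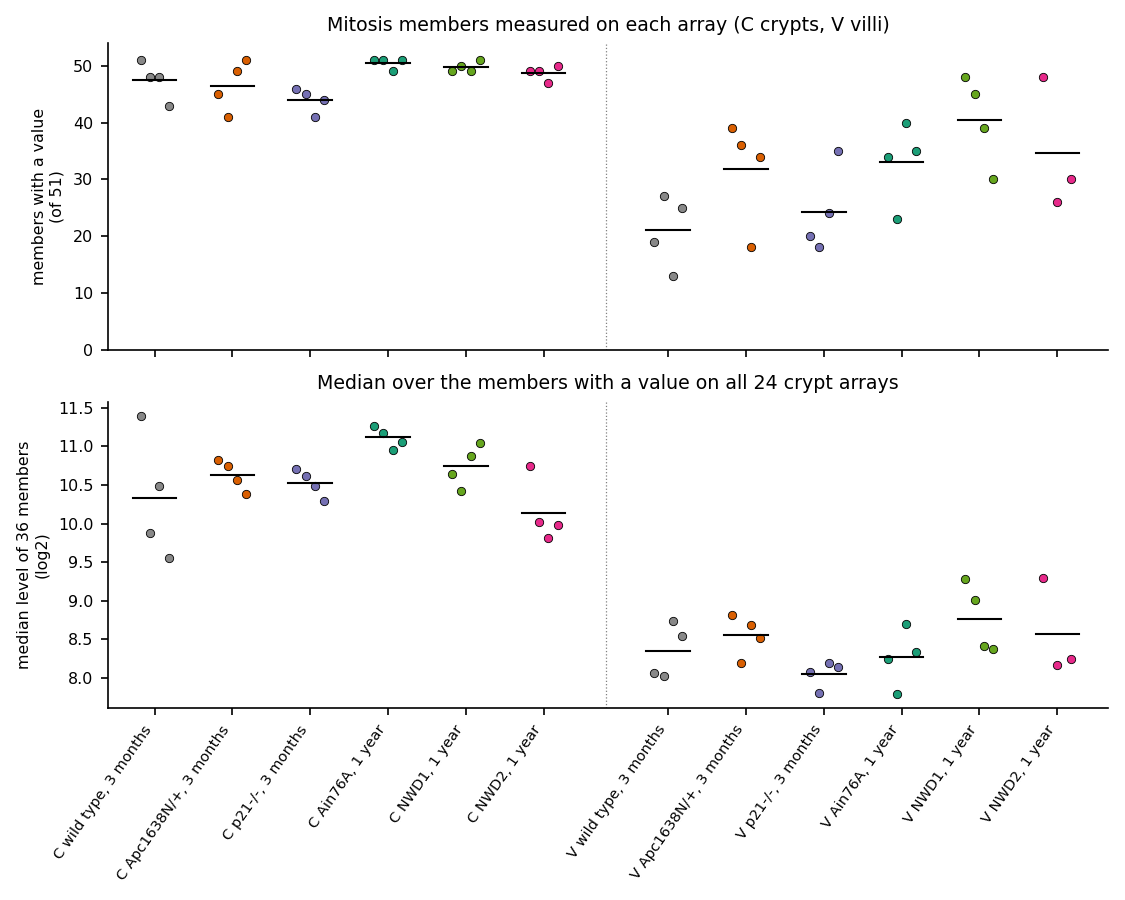
Number of members with a value on each array (top, of 51) and the median log2 level of the 36 members measured on all crypt arrays (bottom, over those with a value), by group, with each point an array and each line the group mean. Crypt arrays hold 41 to 51 members and villus arrays 13 to 48, and wild-type crypt arrays 2 and 4 have medians of 9.88 and 9.56.

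Crypts exceeded villi in the expression of these genes under every genotype and diet. A member was tested where at least 3 arrays of both groups had a value, and called at an adjusted p under 0.05 in limma over all genes. In 3-month wild-type mice 16 of 18 tested members were higher in crypts and none lower, where 46.3% of all genes tested were called in either direction (20.4% higher in crypts). In Apc1638N/+ mice 29 of 30 were higher (background 41.5% in either direction and 21.1% higher). In p21-/- mice 20 of 21 were higher (46.1% and 23.7%). After 1 year on Ain76A all 32 tested were higher (52.6% and 26.8%), on NWD1 39 of 41 (41.8% and 22%) and on NWD2 23 of 25 (12.5% and 7.59%). The median crypt-minus-villus difference of the tested members was 2.66 in wild type, 2.40 in Apc1638N/+, 2.86 in p21-/-, 3.16 on Ain76A, 2.12 on NWD1 and 1.92 on NWD2. The median over all genes tested lay between -0.12 and 0.01. Members blank in villi could not be tested, so these counts cover those with a measurable villus level. Over the 6 comparisons 42 members were tested at least 1 time and 9 never, and 159 of 167 member tests were called. Of 15 members tested in all 6, 13 were higher in crypts in every one, and the exceptions were Cdc25b and Pttg1. As a check of the tissue labels, after 1 year on Ain76A all 13 tested enterocyte markers were lower in crypts (median -2.04), and all 5 tested Paneth cell markers were higher (median 3.78). The enterocyte check did not hold everywhere. On NWD2 no enterocyte marker was called. There the mean of the 13 was 13.74, 14.64, 14.92 and 14.35 in crypts and 14.60, 15.22 and 15.31 in villi. In 3-month wild type Anpep was higher in crypts (2.35 ± 0.73, adjusted p = 0.00759), while others such as Treh (-1.83 ± 0.46) were lower.

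**Figure D2:**
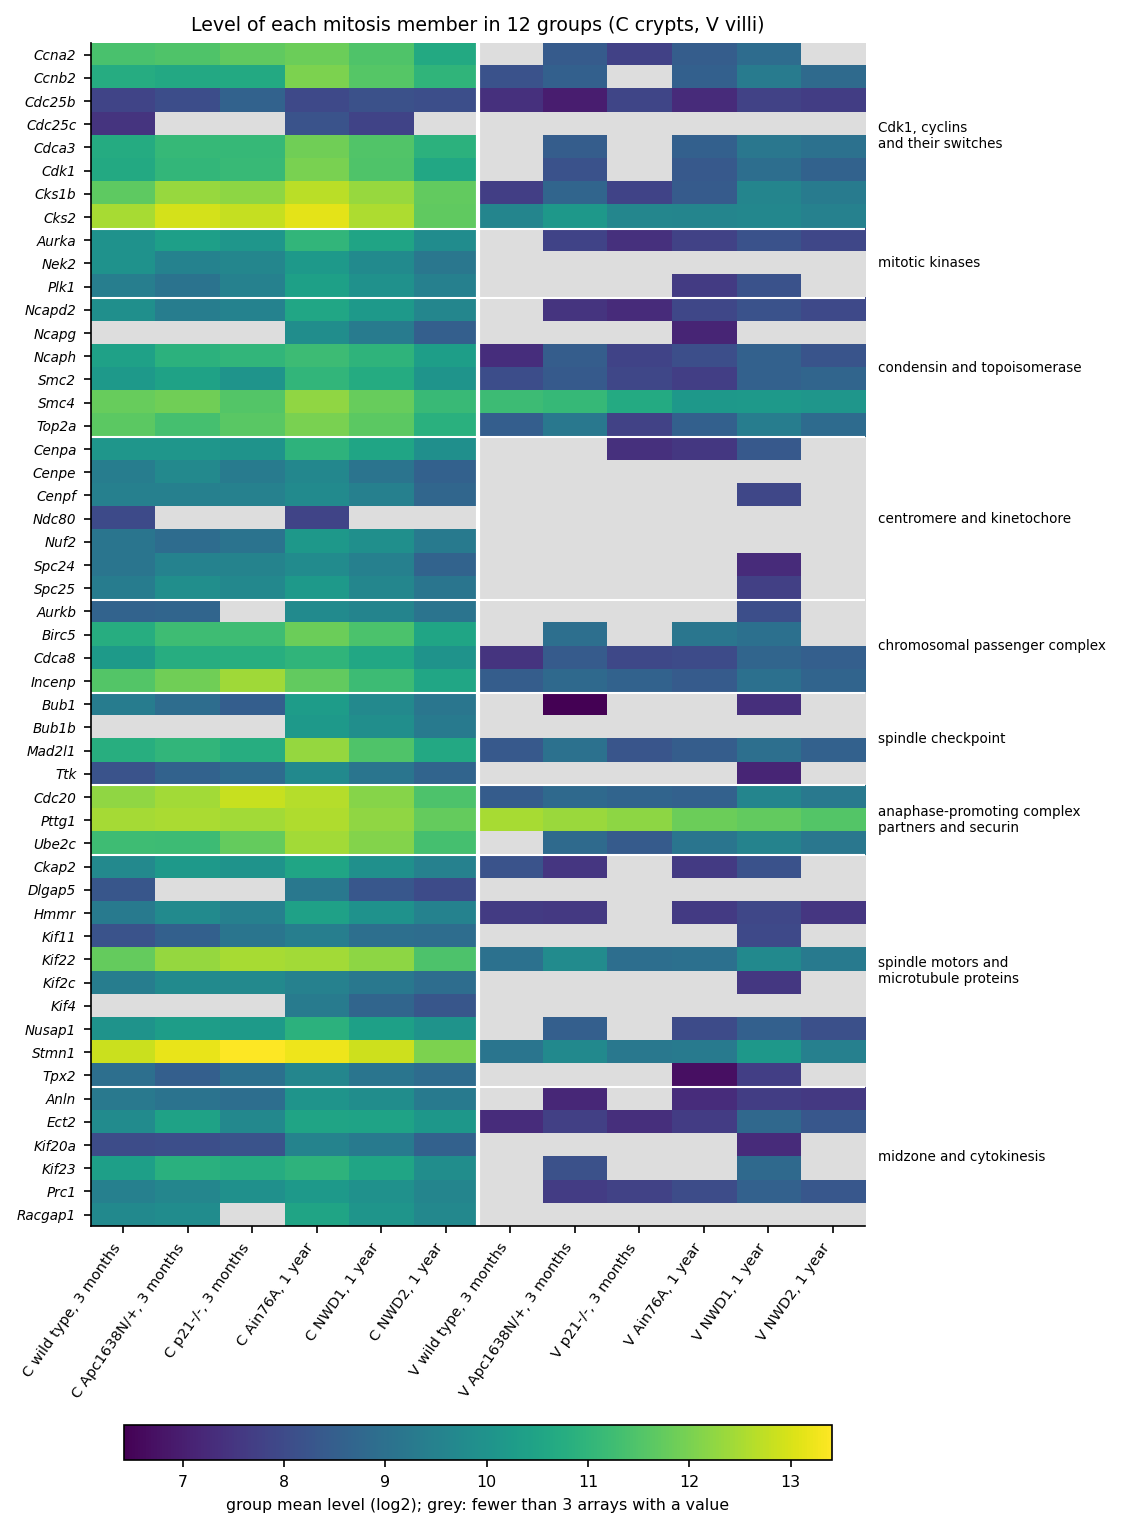
Mean log2 level of each of the 51 members (rows, by role) in each of the 12 groups (columns), with grey where fewer than 3 arrays had a value. Crypt columns are brighter than villus columns in every role group, most kinetochore genes are grey in villi, and Pttg1 and Smc4 stay bright in villi.

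Among Cdk1, its cyclins and their switches, the Cdk-binding subunit Cks1b had the largest difference in every comparison but that on NWD1, where Cks2 was above it by 2.91 against 2.73. Cks1b, which also serves the ubiquitin ligase that destroys p27, stood at 13.00, 12.50, 12.71 and 12.59 on the Ain76A crypt arrays and at 8.25, 6.87, 9.80 and 8.85 on the Ain76A villus arrays. The groups did not overlap, and the difference was 4.25 ± 0.45 (SE, adjusted p = 4.49e-10). In p21-/- mice it was 4.38 ± 0.45, the largest of any member in any condition. Its paralogue Cks2 was 13.25, 13.03, 13.16 and 13.11 in Ain76A crypts and 9.50, 8.96, 9.98 and 9.94 in villi, a difference of 3.54 ± 0.31 (adjusted p = 1.06e-11). Cdk1, the kinase that starts mitosis, was 12.20, 12.14, 12.05 and 11.62 in Ain76A crypts. It had a value on 3 of the 4 Ain76A villus arrays, 8.50, 8.79 and 7.82, and the difference was 3.63 ± 0.37 (adjusted p = 9.72e-10). In wild-type villi Cdk1 had a value on only 1 array, 8.53, so no test was made. Ccnb2, cyclin B2, was 11.68, 10.05, 10.89 and 10.44 in wild-type crypts and 7.99, 7.66 and 8.86 on the 3 wild-type villus arrays that measured it, a difference of 2.59 ± 0.38 (adjusted p = 1.33e-06). Ccna2, cyclin A2, differed by 3.92 ± 0.40 in p21-/- mice. Cdc25b, a phosphatase that activates Cdk1, was higher in crypts in 3 of 6 comparisons, with differences from 0.37 to 1.10.

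The mitotic kinases followed the same order. Aurka, which builds the spindle poles, was 11.00, 11.24, 11.02 and 10.84 in Ain76A crypts and 7.96, 7.26, 8.25 and 7.77 in villi, a difference of 3.21 ± 0.34 (adjusted p = 9.62e-10). It was higher in crypts in all 5 comparisons that tested it, by 1.92 to 3.21. Plk1, the polo kinase, was 10.28, 10.32, 10.49 and 10.52 in Ain76A crypts and 7.59, 8.39 and 6.89 on the 3 villus arrays with a value, a difference of 2.78 ± 0.41. Nek2, a centrosome kinase, was tested in no tissue comparison because the probe set taken for it was blank on most villus arrays. Another of its probe sets, with a value on 34 arrays, gave a crypt-minus-villus difference of 2.79 on Ain76A.

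Chromosome-shaping genes were higher in crypts throughout. Top2a, topoisomerase II alpha, was 12.20, 11.91, 11.89 and 12.03 in Ain76A crypts and 9.00, 7.48, 9.06 and 8.72 in villi, a difference of 3.44 ± 0.39 (adjusted p = 1.75e-09). The condensin subunits differed in size. Smc2 differed by 3.28 ± 0.30 on Ain76A and Ncaph by 3.11 ± 0.35, whereas Smc4 differed by 0.57 in 3-month wild type and by 2.13 on Ain76A, its lowest and highest values. Smc4 in wild-type villi was 11.04, 11.00, 11.49 and 11.31, and in Ain76A villi 10.25, 10.07, 10.08 and 10.15. The villus arrays of the 2 arms did not overlap, and their test is given with the age comparison. Other Smc4 probe sets, also with a value on all 47 arrays, gave crypt-minus-villus differences of 1.86 and 1.62 on Ain76A. For 1 year minus 3 months in wild-type crypts they gave 1.97 and 1.54, against 0.49 for the set taken. These other sets were not tested.

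On the probe sets taken for them, kinetochore and checkpoint genes were mostly blank in villi. Cenpe, Ndc80 and Nuf2 had too few villus values for a test in any condition. For Spc25 another probe set, with a value on 42 arrays against 30 for the set taken, gave a crypt-minus-villus difference of 0.85 on Ain76A. Cenpa, the histone that marks centromeres, was 11.04, 10.98, 10.62 and 11.08 in Ain76A crypts and 7.36, 6.59, 8.37 and 7.87 in villi, a difference of 3.38 ± 0.36 (adjusted p = 2.01e-09). Mad2l1, which encodes the checkpoint protein Mad2, was 12.20, 12.41, 12.25 and 12.34 in Ain76A crypts and 8.67, 7.82, 8.73 and 8.69 in villi. Its difference of 3.83 ± 0.35 (adjusted p = 2.52e-11) was larger than on NWD1, 2.52 ± 0.35, and on NWD2, 2.04 ± 0.37, and neither gap passed its own test, given with the tissue-by-diet differences. Bub1, a checkpoint kinase, was higher in crypts by 2.50 ± 0.40 in Apc1638N/+ and by 2.36 ± 0.37 on NWD1, the only conditions in which it could be tested.

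In the chromosomal passenger complex, which corrects attachments, Birc5 (survivin) was 11.86, 11.90, 11.79 and 11.77 in Ain76A crypts and 8.94, 9.39 and 9.19 on 3 villus arrays, a difference of 2.66 ± 0.39 (adjusted p = 7.57e-07). It had no value on any wild-type villus array. Incenp, the scaffold of the complex, differed by 1.90 to 3.79 and Cdca8, borealin, by 1.48 to 2.97, both in all 6 comparisons. The value of Incenp rests on a probe set of the x_at kind, whose probes may also match other transcripts.

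Partners of the anaphase-promoting complex were among the largest differences. Cdc20, its mitotic activator, was 12.88, 12.28, 12.44 and 12.90 in Ain76A crypts and 8.56, 7.27, 9.38 and 9.17 in villi, a difference of 4.03 ± 0.43 (adjusted p = 6.37e-10). Ube2c, its ubiquitin-conjugating enzyme, differed by 2.15 to 3.33 in 5 comparisons. Pttg1, securin, was the member least separated by tissue. It was 12.67, 12.77, 12.32 and 12.18 in wild-type crypts and 12.62, 12.35, 12.71 and 12.31 in wild-type villi. The groups overlapped, with a difference of -0.02 ± 0.22, and on Ain76A it was called at 0.73 ± 0.22 (adjusted p = 0.0044). The Pttg1 value comes from a probe set of the s_at kind, which can match several transcripts of related genes.

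Of the spindle motors and microtubule proteins, Stmn1, the tubulin-binding protein stathmin, was 13.62, 13.02, 13.14 and 13.10 in Ain76A crypts and 9.58, 8.66, 9.87 and 8.93 in villi, a difference of 3.96 ± 0.37 (adjusted p = 3.84e-11). Kif22, a chromosome-arm kinesin, differed by 2.17 to 3.56 in all 6 comparisons, on an x_at probe set. Dlgap5, which stabilises kinetochore fibres, had a value on 1 of 23 villus arrays, so its tissue difference was not tested. In cytokinesis, Ect2, the exchange factor that activates RhoA at the midzone, was higher in crypts in all 6 comparisons by 1.71 to 2.85. Anln, which links the contractile ring to the membrane, was higher in 4 of 4 by 1.71 to 2.72.

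Other genes of cell division showed the same direction. Of 84 further mitosis genes, 47 were tested on Ain76A and 38 were higher in crypts and 1 lower (median 1.26). They included Mki67, the proliferation antigen, by 3.55 ± 0.44, and the exception was Mad2l2, at -1.03 ± 0.21. Of 42 DNA replication genes, 24 were tested and 20 were higher (median 1.99), among them the primase subunit Prim1 by 3.67 ± 0.35 and the helicase subunits Mcm5 by 3.38 ± 0.38 and Mcm7 by 3.12 ± 0.26.

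In the crypts of mice fed NWD2 for 1 year, mitotic genes were lower than in crypts of mice fed Ain76A. Of 49 members tested 19 fell and none rose, where 8.58% of all genes tested were called (3.36% lower and 5.22% higher). The median difference of the 49 was -1.02 and that of all genes -0.09. All but Cdc25b (0.14 ± 0.28, adjusted p = 0.811) had a negative estimate, and in 42 of the 49 the groups did not overlap, as in 25.9% of all genes tested. The count depended on the arrays and the model. It ranged from 5 to 34 when single arrays were left out, was 11 on the deposited scaling, 10 with blanks filled and 46 with only these 2 groups in the fit, and the median stayed between -1.22 and -0.89 when arrays were left out. The main fit shares 1 estimate of the spread per gene over the 12 groups, and their spreads differed. The median absolute log2 difference between arrays of a group was 0.23 to 0.30 in Ain76A crypts and 0.20 to 0.37 in NWD2 crypts. In 3-month wild-type crypts it was 0.37 to 0.58. The part of this in the counts was not tested. Without NWD2 array 3 the count was 5, without NWD2 array 2 or Ain76A array 1 it was 6, and without NWD2 array 1, the array with the highest member levels of its group, it was 34. Smc4, Mad2l1, Cks2 and Ncapg were called in all 8 of these fits, and Dlgap5 in the 5 that could test it.

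**Figure D3:**
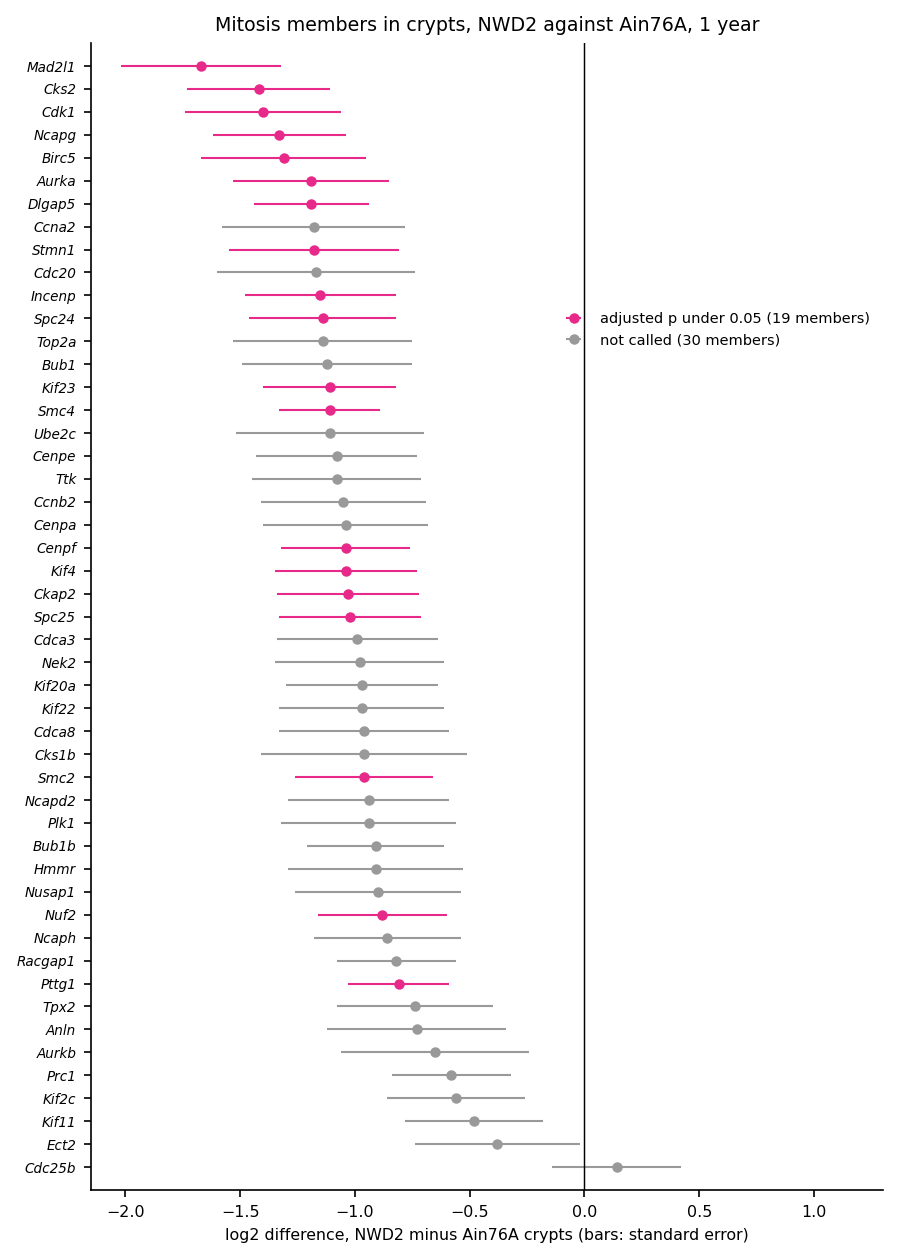
Log2 difference, NWD2 minus Ain76A crypts, for the 49 tested members, ordered by size, with bars for the standard error and pink for members with an adjusted p under 0.05. The 19 called members lie between -1.67 and -0.81, and Cdc25b alone lies above 0.

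Cdk1 was 11.26, 10.38, 10.11 and 10.66 on the NWD2 crypt arrays, all below the lowest Ain76A value of 11.62. It fell by 1.40 ± 0.34 (SE) on the log2 scale, with an adjusted p of 0.00885. Cks2 was 12.46, 11.42, 10.96 and 12 and fell by 1.42 ± 0.31 (adjusted p = 0.00267). For Ccnb2 the NWD2 values were 11.60, 10.89, 10.46 and 10.99, below the 11.98 to 12.09 of Ain76A, and the difference of -1.05 ± 0.36 missed the threshold (adjusted p = 0.0577). Cks1b, at 12.37, 11.61, 11.19 and 11.76, did likewise (-0.96 ± 0.45, adjusted p = 0.171). In these 4 genes the NWD2 array 1 was the highest of its group.

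Aurka was 10.37, 9.64, 9.44 and 9.87 and fell by 1.19 ± 0.34 (adjusted p = 0.0234). Plk1 was 9.90, 9.49, 9.07 and 9.39, against 10.28 to 10.52 on Ain76A, a difference of -0.94 ± 0.38 (adjusted p = 0.119). Condensin gave the smallest p of any member. Smc4 was 12.42, 12.21, 12.27 and 12.15 on Ain76A and 11.68, 11.01, 10.82 and 11.12 on NWD2, and fell by 1.11 ± 0.22 (adjusted p = 0.00166). Its partner Smc2 was 11.18, 10.98, 10.84 and 11.04 against 10.57, 9.97, 9.81 and 9.83 and fell by 0.96 ± 0.30 (adjusted p = 0.0405). Ncapg, a regulatory condensin subunit, was 9.91, 9.78, 10.10 and 9.66 against 9.22, 8.33, 8.42 and 8.18 and fell by 1.33 ± 0.29 (adjusted p = 0.007). Top2a was 11.51, 10.81, 10.47 and 10.67, a difference of -1.14 ± 0.39 (adjusted p = 0.0582).

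Mad2l1 had the largest change of all members. It was 11.40, 10.40, 10.19 and 10.54 on NWD2 and fell by 1.67 ± 0.35 (adjusted p = 0.00197), where the Ain76A values lay between 12.20 and 12.41. At the kinetochore 4 of 6 tested members fell. Spc24 was 9.87, 10.05, 9.57 and 9.66 on Ain76A and 9.28, 8.46, 7.99 and 8.87 on NWD2 and fell by 1.14 ± 0.32 (adjusted p = 0.0262). Spc25, its partner in the Ndc80 complex, was 10.29, 10.37, 10.22 and 9.82 against 9.89, 9.04, 8.77 and 8.90. It fell by 1.02 ± 0.31 (adjusted p = 0.038), with overlap through NWD2 array 1. Nuf2, of the same complex, was 10.40, 10.32, 9.98 and 9.87 against 9.80, 9.27, 8.94 and 9.02 and fell by 0.88 ± 0.28 (adjusted p = 0.0467). Cenpf, a large kinetochore and microtubule protein, was 10.05, 9.51, 9.58 and 9.93 against 9.25, 8.76, 8.70 and 8.18 and fell by 1.04 ± 0.28 (adjusted p = 0.0207). Cenpa, at 10.50, 9.81, 9.42 and 9.82, differed by -1.04 ± 0.36 (adjusted p = 0.0644).

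In the passenger complex Birc5 was 11.32, 10.29, 9.90 and 10.58 on NWD2 and fell by 1.31 ± 0.36 (adjusted p = 0.0192). Incenp was 12.07, 11.32, 11.51 and 11.96 on Ain76A and 11.07, 10.58, 10.22 and 10.41 on NWD2 and fell by 1.15 ± 0.33 (adjusted p = 0.0234). Pttg1 was 12.71, 12.39, 12.67 and 12.54 against 12, 11.72, 11.46 and 11.88 and fell by 0.81 ± 0.22 (adjusted p = 0.0142), the smallest of the called changes. Cdc20, at 12.25, 11.36, 10.78 and 11.41, was below all Ain76A values, with a difference of -1.17 ± 0.43 (adjusted p = 0.0765).

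Among spindle proteins Dlgap5 was 9.24, 9.21, 9.50 and 8.87 on Ain76A and had 3 NWD2 values, 8.28, 7.84 and 7.93. It fell by 1.19 ± 0.25 (adjusted p = 0.00728). Stmn1 was 12.81, 12, 11.18 and 12.18 on NWD2 and fell by 1.18 ± 0.37 (adjusted p = 0.0378). Ckap2, a spindle-pole microtubule protein, was 10.57, 10.48, 10.72 and 10.35 against 10.16, 9.25, 9.20 and 9.39 and fell by 1.03 ± 0.31 (adjusted p = 0.0358). Kif4, a chromosome-bound kinesin, had 3 Ain76A values, 9.56, 9.40 and 9.04, and NWD2 values of 8.97, 8.19, 7.99 and 8.00. It fell by 1.04 ± 0.31 (adjusted p = 0.0489). Kif23, the midzone kinesin of cytokinesis, was 11.12, 11.00, 10.90 and 10.78 against 10.14, 9.67, 9.56 and 10.00 and fell by 1.11 ± 0.29 (adjusted p = 0.015). It was the only 1 of 6 cytokinesis members called. Another Kif23 probe set gave a smaller difference of group means, -0.41, which was not tested.

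**Figure D4:**
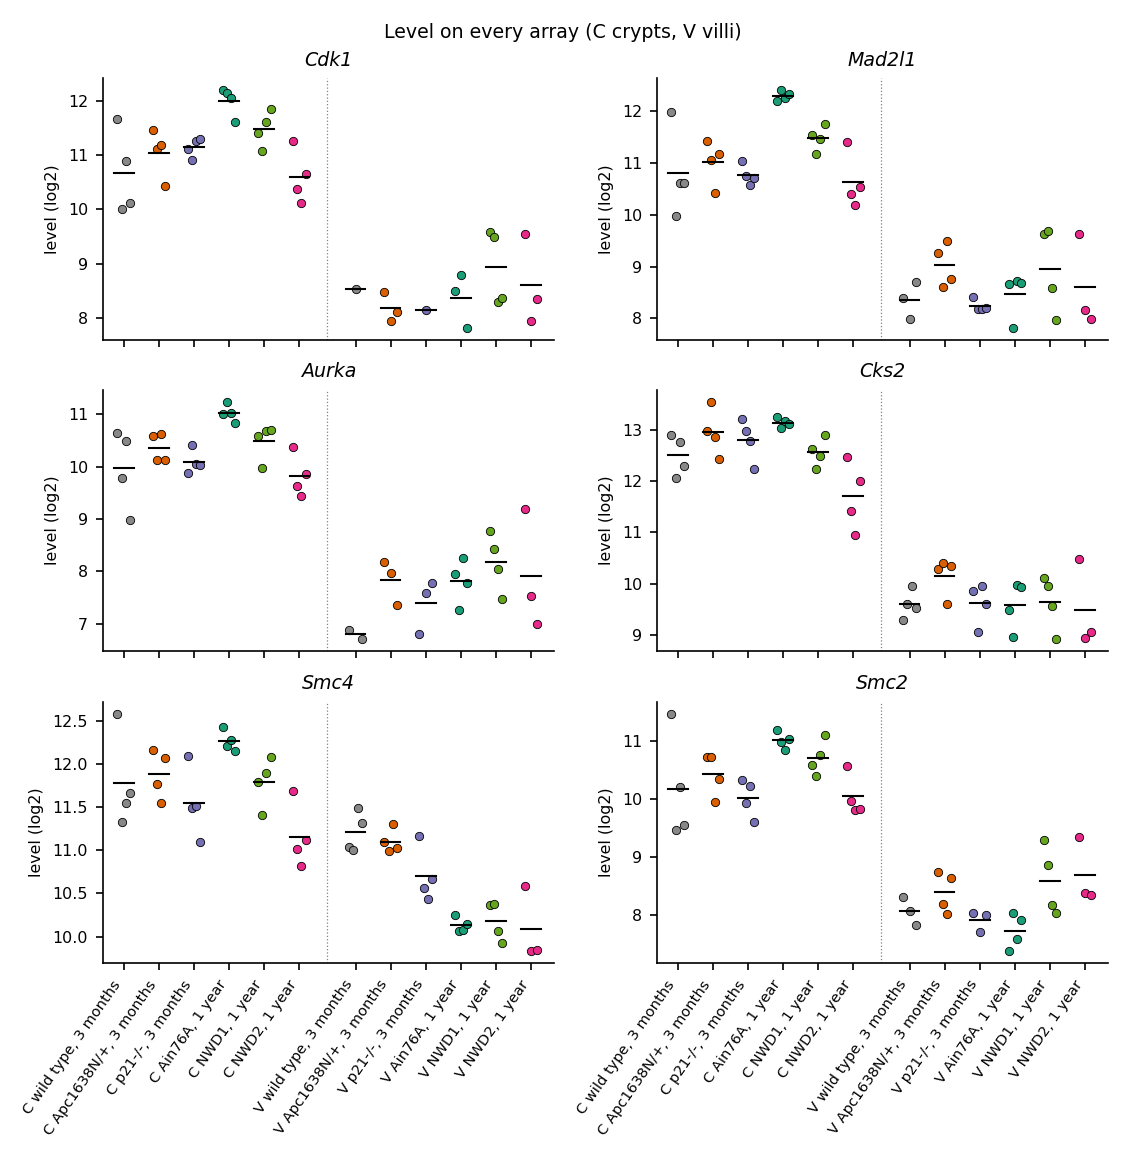
Log2 level on every array for Cdk1, Mad2l1, Aurka, Cks2, Smc4 and Smc2 in crypts (left of the dotted line) and villi, with lines for group means and a separate vertical scale for each gene. Ain76A crypts are the highest group mean in each panel, with Cdk1 at 12 against 10.60 in NWD2 crypts, and wild-type crypts are the most spread for Mad2l1, from 9.97 to 11.99.

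Other gene groups moved with this comparison. In the same NWD2 crypts 11 of 13 tested enterocyte markers rose (median 1.67), including the peptide transporter gene Slc15a1 by 2.36 ± 0.46 (adjusted p = 0.00125) and lactase, Lct, by 1.93 ± 0.43. The mean of the 13 markers per array was 12.48, 13.31, 13.35 and 12.36 in Ain76A crypts and 13.74, 14.64, 14.92 and 14.35 in NWD2 crypts. NWD2 array 1 had the lowest enterocyte mean and the highest member median of its group, 10.75 against 10.02, 9.81 and 9.98. Enterocytes are the non-dividing cells of the villus, and the part of these markers in the members' result was not tested. Of the other lists, 11 of 70 further mitosis genes and 10 of 37 DNA replication genes fell, with medians of -0.58 and -0.77. Mcm7 fell by 1.08 ± 0.26 (adjusted p = 0.00736) and Plk4, the kinase of centriole duplication, fell by 1.38 ± 0.38 (adjusted p = 0.0201). Of Paneth cell markers 1 of 7 fell, of goblet cell markers 1 of 7 and of crypt base columnar (stem) cell markers 1 of 6. Lymphocyte markers had no call among 8.

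**Figure D5:**
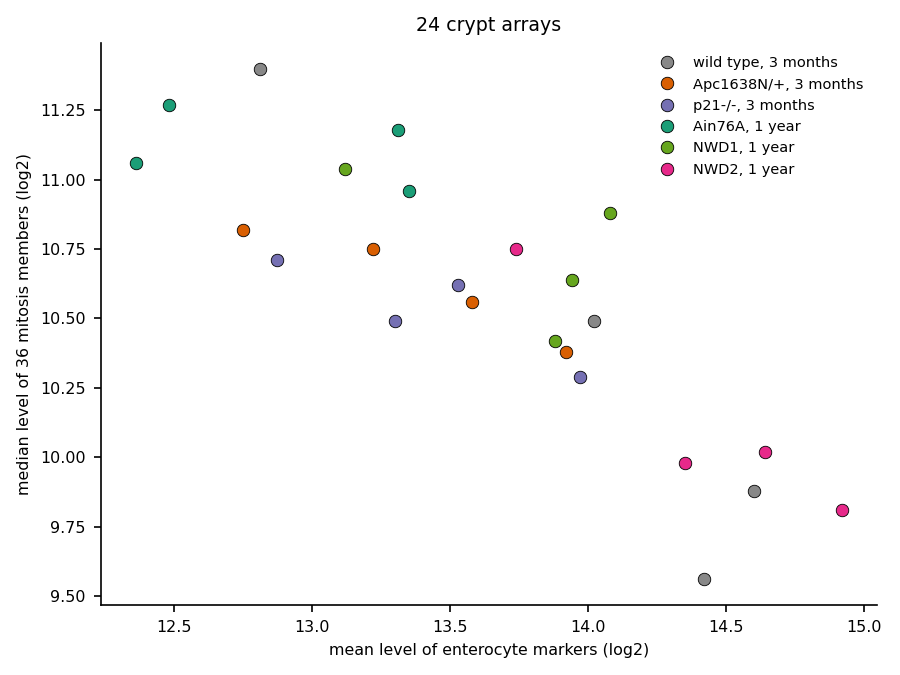
Median log2 level of the 36 members measured on all crypt arrays against the mean log2 level of 13 enterocyte markers, with each point 1 of the 24 crypt arrays, coloured by group. NWD2 arrays 2 to 4 and wild-type arrays 2 and 4 hold the lowest member medians, 9.56 to 10.02, at enterocyte means of 14.35 to 14.92.

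On NWD1 no member was called in crypts among 50 tested by limma, and no gene of 9325 tested was called (0%). Unadjusted p was under 0.05 for 3 members, where 3.35% of all genes were under it. The median difference was -0.40, against -0.06 over all genes, and 49 of 50 estimates were below 0. Dlgap5 was 8.69, 7.95, 8.13 and 8.49 on NWD1, below all 4 Ain76A values, with -0.89 ± 0.24 (adjusted p = 1). Cdk1 was 11.41, 11.08, 11.61 and 11.86, and Mad2l1 11.54, 11.17, 11.46 and 11.75 (-0.82 ± 0.35, adjusted p = 1). In 13 of the 50 members the NWD1 and Ain76A arrays did not overlap, as in 7.6% of all genes tested. The 2 diet comparisons share the Ain76A arrays. Enterocyte markers had a median of 0.77 on NWD1, with 0 of 13 called.

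Crypts of wild-type mice after 1 year on Ain76A were set against crypts of 3-month wild-type mice on the same diet. Age, time on the diet and study arm coincide here and cannot be told apart. For the dietary arm the labels give 1 year of feeding and no age. Of 48 members tested 13 were higher at 1 year and none lower, where 11.3% of all genes were called (6.32% higher). The median was 0.78, against 0.08 over all genes. Without wild-type crypt arrays 2 and 4 no member was called and the median was 0.28. Leaving out single arrays gave 1 to 24 calls, 1 without wild-type array 2 and 24 without wild-type array 1, and the deposited scaling gave 7. Kif20a, a midzone kinesin, was 9.63, 9.53, 9.46 and 9.62 at 1 year and 9.09, 7.65, 8.09 and 7.34 at 3 months, without overlap, and was higher by 1.52 ± 0.33 (adjusted p = 0.00478). It was the call kept in every fit that left out 1 array. Mad2l1 at 3 months was 11.99, 9.97, 10.62 and 10.62, below the 1-year range of 12.20 to 12.41, and was higher at 1 year by 1.50 ± 0.35 (adjusted p = 0.00537). Ttk, the checkpoint kinase Mps1, was 9.53, 7.31, 8.03 and 7.93 at 3 months and 9.60, 9.99, 9.92 and 9.50 at 1 year, with overlap through array 1 (1.55 ± 0.37, adjusted p = 0.00894).

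Cdk1 at 3 months was 11.67, 10.01, 10.89 and 10.11, overlapping the 1-year values through array 1, and was higher at 1 year by 1.33 ± 0.34 (adjusted p = 0.0115). Ccnb2 was higher by 1.27 ± 0.36 (adjusted p = 0.0179). Cdca3, a trigger of mitotic entry, was 11.78, 9.78, 11.03 and 10.33 at 3 months and 11.74, 11.80, 11.91 and 12.16 at 1 year (1.17 ± 0.35, adjusted p = 0.0267). Aurka at 3 months was 10.64, 9.79, 10.49 and 8.99, below all 1-year values, and differed by 1.05 ± 0.34 (adjusted p = 0.0409). Birc5 was 12.14, 10.07, 11.47 and 9.38 at 3 months and differed by 1.06 ± 0.36 (adjusted p = 0.0493). Ube2c was 12.49, 10.28, 11.84 and 10.34 at 3 months and 12.47, 12.44, 12.35 and 12.53 at 1 year, higher by 1.21 ± 0.41 (adjusted p = 0.0466). In Cdca3, Birc5 and Ube2c the 3-month arrays 2 and 4 are the lowest of the group. Kif11, the kinesin that pushes the poles apart, had 3 values at 3 months, 8.71, 7.65 and 8.24, and 9.09, 9.70, 9.46 and 9.34 at 1 year (1.20 ± 0.33, adjusted p = 0.0179). Hmmr, a spindle-pole protein, was 10.55, 8.87, 9.81 and 7.88 at 3 months and 10.35, 10.52, 10.47 and 10.37 at 1 year (1.15 ± 0.38, adjusted p = 0.0428). Dlgap5 had 3 values at 3 months, 8.56, 7.96 and 8.37, and was higher by 0.91 ± 0.25 (adjusted p = 0.0267). Nuf2 had 3 values at 3 months, 9.94, 8.48 and 8.96, and was higher by 1.02 ± 0.30 (adjusted p = 0.0292). Beside these, 8 of 13 enterocyte markers were lower at 1 year (median -0.92), 3 of 7 goblet cell markers were lower (Zg16, Clca1 and Muc2, by -1.14, -1.12 and -1.05), 5 of 9 enteroendocrine markers were higher, and 11 of 62 further mitosis genes and 9 of 39 DNA replication genes were higher. The part of these marker groups in the members' result was not tested.

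Neither genotype changed a member at this threshold. In Apc1638N/+ crypts 0 of 45 tested members were called by limma and 0 had an unadjusted p under 0.05, where 0.0385% of all genes were called and 12.3% had an unadjusted p under 0.05. The median was 0.26, and -0.22 over the 44 members tested without wild-type arrays 2 and 4, so its sign rests on those arrays. The smallest p was that of Ect2, 0.65 ± 0.36 (adjusted p = 0.45). Cdk1 was 11.46, 11.11, 11.19 and 10.43 in Apc1638N/+ crypts, within the wild-type range. In p21-/- crypts 0 of 43 were called by limma where 5.16% of all genes were. An unadjusted p under 0.05 was found for 5 of the 43 and for 20.5% of all genes. The median was 0.30, and -0.38 over the 42 members tested without wild-type arrays 2 and 4. Kif11 differed by 0.96 ± 0.35 (adjusted p = 0.108), Incenp by 0.87 ± 0.33 (adjusted p = 0.116) and Bub1 by -0.83 ± 0.37 (adjusted p = 0.187). Cdk1 was 11.11, 10.91, 11.26 and 11.29 in p21-/- crypts and Birc5 11.53, 11.34, 11.22 and 10.88, both inside the wild-type range. Of the other lists 1 of 32 DNA replication genes was called, Pold1, a DNA polymerase subunit, higher in p21-/- crypts by 1.39 ± 0.34, and 0 of 46 further mitosis genes. Paneth cell markers were higher in p21-/- crypts in 3 of 7 and myeloid markers in 1 of 6, and lymphocyte markers were lower in 3 of 5 and enterocyte markers in 1 of 13. Both genotypes share the wild-type arrays.

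In villi few members had enough values to test. Between Apc1638N/+ and wild type 0 of 18 were called (0.0254% of all genes, 4 members and 5.32% of genes at an unadjusted p under 0.05), and Ncaph was higher by 1.15 ± 0.35 (adjusted p = 0.609). Between p21-/- and wild type 0 of 15 were called (0.0383%, with 1 member and 10.9% of genes at an unadjusted p under 0.05), with Smc4 at -0.50 ± 0.22 (adjusted p = 0.412). NWD1 against Ain76A gave 0 of 31 (0.0563%, with 11 members and 4.87% of genes at an unadjusted p under 0.05) and a median of 0.55. Ect2 differed by 1.13 ± 0.36 (adjusted p = 0.625) and Cks1b, at 10.15, 10.49, 8.50 and 9.22 on NWD1, by 1.15 ± 0.45 (adjusted p = 0.859). Arrays 1 and 2 held the high values of Cks1b, and they are also the arrays with the higher Paneth cell mean given above. Without those 2 arrays the median of the 26 members still tested was 0.01. NWD2 against Ain76A gave 0 of 25 (0.399%, with 1 member and 11.5% of genes at an unadjusted p under 0.05), with Smc2 at 0.97 ± 0.33 (adjusted p = 0.211). For the 1-year against the 3-month wild-type villi 2 of 18 were lower at 1 year and none higher, where 16.3% of all genes were called (9.75% lower). Smc4 fell by 1.07 ± 0.22 (adjusted p = 0.00112), with no overlap between the villus values given above. Pttg1 was 12.08, 11.70, 11.79 and 11.82 at 1 year, all below the 3-month values, and fell by 0.65 ± 0.22 (adjusted p = 0.034). That call was lost in 5 of 8 fits that left out 1 array, with adjusted p up to 0.112 without wild-type villus array 3, and the Smc4 call in none. On the deposited scaling Pttg1 was at -0.34 (adjusted p = 0.297). In the same comparison all 11 tested lymphocyte markers were lower at 1 year (median -2.57), 4 of 9 enteroendocrine markers were lower, among them Ghrl at -2.28, and 3 of 13 enterocyte markers were higher, Anpep at 3.58, Slc15a1 at 1.39 and Mep1b at 0.94. Of 5 myeloid markers 1 was higher and 1 lower. The part of these groups in the Smc4 and Pttg1 results was not tested.

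Whether the crypt-minus-villus difference itself changed was tested as an interaction. Between NWD2 and Ain76A 1 of 25 members was called, where 0.579% of all genes were, and 17 had an unadjusted p under 0.05, as did 19.6% of all genes. Smc2 had a tissue difference of 1.35 on NWD2 and 3.28 on Ain76A, and the interaction was -1.93 ± 0.45 (adjusted p = 0.0455). Smc2 in villi was 7.38, 8.03, 7.59 and 7.92 on Ain76A and 9.34, 8.39 and 8.34 on NWD2, without overlap, so villus values were higher and crypt values lower on NWD2. The highest of these villus values, 9.34, was on NWD2 array 1, whose member levels are given below. Leaving out 1 array at a time lost the call in 10 of 15 fits, with estimates from -2.10 to -1.60 and adjusted p from 0.0123 to 0.258, the last without NWD2 villus array 1. All 25 estimates were below 0, with a median of -1.30 against -0.03 over all genes, and Mad2l1 was next at -1.79 ± 0.51 (adjusted p = 0.0617). The median ran from -1.6 to -0.73 in the fits that left out 1 array. NWD2 villus array 1 had values for 48 members, against 26 and 30 on the other NWD2 villus arrays. Its member median was 9.30 against 8.17 and 8.25, and its enterocyte mean 14.60 against 15.22 and 15.31. Between NWD1 and Ain76A 0 of 31 were called by limma (0% of genes), 16 had an unadjusted p under 0.05, as did 2.62% of genes, and all estimates were below 0 with a median of -1.02, which was -0.41 over the 26 members tested without NWD1 villus arrays 1 and 2. Mad2l1 there was -1.31 ± 0.49 (adjusted p = 0.999). Between Apc1638N/+ and wild type 0 of 18 were called (0.0144% of genes, with 1 member and 6.23% of genes at an unadjusted p under 0.05), and between p21-/- and wild type 0 of 15 (1.63% of genes, with 0 members and 17.6% of genes at an unadjusted p under 0.05).

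Members varied together between arrays of a group. With group means removed, the median Pearson correlation over the 630 pairs of the 36 members measured on all 24 crypt arrays was 0.60, ranging from -0.20 to 0.95, and 98.1% of pairs were above 0. The pairs share arrays and cell makeup, and the figure is a description. Other probe sets of the members mostly pointed the same way. In crypts minus villi on Ain76A 54 of 54 member probe sets with values in both groups were above 0. For NWD2 minus Ain76A crypts 85 of 87 were below 0, and Prc1, which bundles midzone microtubules, had probe sets of opposite sign. In the age comparison 78 of 82 were above 0, with Cenpa, Incenp and Prc1 split between their probe sets.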

How the data were processed

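Labelled RNA from crypts and villi was hybridised to Affymetrix mouse 3' arrays, 47 in all. The deposited value table holds log2 signals made by the authors with GCOS, per the submitters' processing notes, which name no version. That the scale is log2 was taken from the range of the values, and no label or header used here says what a blank stands for. From these values, 64 control probe sets were dropped, arrays were quantile normalised on the 8350 probe sets with a value in all columns, with the others interpolated. Probe sets with a value on at least 3 arrays were kept (30406 of 45037), and each gene was taken by its probe set of highest mean. Of the probe sets, 34945 carry 1 gene symbol and 932 several, and the latter name no gene here.

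All comparisons came from 1 fit over the 12 groups with limma 3.58.1 (R 4.3.3, lmFit and eBayes with a trend), adjusted by Benjamini-Hochberg over all genes tested in a comparison. The fit was tested on simulated data for NWD2 against Ain76A crypts. Of 100 genes changed by a log2 of 1, 51% were called in the right direction, and of 100 changed by 2, 96%. Unchanged genes made up 4.5% of the calls. Many changes of a log2 of 1 or less can thus go uncalled in data of that kind. On the arrays themselves the groups differed in spread and members varied together, as given above. Whether these percentages hold for the arrays was not tested. A gene needed values on 3 arrays of each group. Promoter letters were searched in RefSeq sequences with Python 3.11.15. Arrays were grouped by the labels' tissue, genotype, diet and age. Samples with the same replicate number deviated together in every pair, at r over 0.1 across 5084 genes, only for crypts against villi on Ain76A and on NWD2. The numbers were therefore read as pairs there and nowhere else, though neither the labels nor this cut settles whether arrays share a mouse. The lowest crypt-villus r was 0.28 on NWD2, 0.13 on Ain76A, 0.07 in p21-/- and 0.04 in Apc1638N/+. It was -0.17 on NWD1 and -0.27 in 3-month wild type. The main fit used no pairs in any comparison, and the replicate number entered only as a block in an alternative fit.

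Values on every array were printed for Cdk1, Ccnb2, Cdc20, Cks1b, Cks2, Top2a, Dlgap5, Birc5, Plk1, Aurka, Mad2l1, Cenpa and Stmn1 in some groups, and for each member called in a condition or interaction comparison. Tissue comparisons name members among the 3 largest called differences of a role group, and comparisons with no call name members among the 3 smallest p-values in each direction. The members and the other gene lists were chosen with earlier results of these data known.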

Additional observations from a re-analysis of the deposited data

Results flagged for a closer look

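Among 130 groups of 4 values (13 members by group, the count of measured members and their median), 5 had a highest or lowest array whose gap to the next, relative to the range, passed Dixon's 95% critical value. Chance alone flags about 1 in 20 groups. Aurka in NWD1 crypts was 9.98 on array 2, below 10.59 to 10.71 on the others. Cks2 in Apc1638N/+ villi was 9.60 on array 3 against 10.29 to 10.40. Mad2l1 in p21-/- villi was 8.41 on array 1 against 8.18 to 8.21, and Mad2l1 in Ain76A villi was 7.82 on array 2 against 8.67 to 8.73. In Ain76A crypts 49 members were measured on array 3 and 51 on each of the others. Smc2 was the only member whose crypt-minus-villus difference changed between conditions by the interaction test, at -1.93 for NWD2 minus Ain76A (limma adjusted p = 0.0455), and the call was lost in 10 of 15 fits that left out 1 array.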

How the results depend on the processing

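No named call changed direction in an alternative run that could test it, and 2230 of 2422 such refits kept the call. In tissue comparisons these calls are only the 3 largest of each role group. Refits in which blanks left a member untested are not counted. Of all 16 wild-type tissue calls 8 were kept in every fit that left out 1 array. Of the 19 calls in NWD2 crypts 4 were. In tissue comparisons the counts followed how many members could be tested. With blanks filled by a low value they were 43 in wild type, 44 in Apc1638N/+, 44 in p21-/-, 50 on Ain76A and 42 on NWD2. A member blank in villi gets its low villus value from the fill itself, so the added calls are no evidence of a tissue difference. With genes measured on every array compared the counts were 9, 14, 11, 21 and, on NWD1, 25. NWD1 also gave 25 without its villus arrays 1 and 2, an alternative chosen after seeing the data, as was a stricter filter on low values. Leaving out 1 array gave 8 to 16 calls in wild type, 15 to 29 in Apc1638N/+, 11 to 20 in p21-/-, 20 to 32 on Ain76A, 25 to 39 on NWD1 and 19 to 23 on NWD2.

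For NWD2 against Ain76A crypts the count of 19 became 10 with blanks filled, 11 on the deposited scaling and 46 with only the 2 groups fitted, and 5 to 34 with 1 array left out. For 1 year against 3 months in crypts 13 became 8 with blanks filled, 7 on the deposited scaling, 7 with only the 2 groups, 0 without wild-type crypt arrays 2 and 4, and 1 to 24 with 1 array left out. In villi that contrast gave 1 on the deposited scaling and 1 to 2 with 1 array left out, the lost call being Pttg1. The p21-/- crypts gave 1 call with blanks filled and NWD1 crypts 1 with only the 2 groups. The NWD2 interaction count of 1 became 0 with blanks filled, 0 with no trend, 6 with only the groups compared, 3 with the replicate block, and 0 to 7 with 1 array left out. Where no value above gives a reason, the cause was not tested.

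Where the replicate numbers were read as pairs, the replicate block left the tissue counts at 32 on Ain76A and 23 on NWD2. Elsewhere they were not read as pairs, and the block gave 28 calls for NWD2 crypts, 18 of them among the 19, and 16 for the age contrast in crypts. It changed no call to the other direction. Signals near background limit the villus values, since most members are blank on some villus arrays.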
